A study of Mus musculus with 23 samples.

Results

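A set of 10 genes of the unfolded protein response and of the amino acid response were followed in mouse liver after repeated doses of 1-methoxy-3-indolylmethyl alcohol (1-MIM-OH), an indole metabolite of glucosinolates from cabbage-family vegetables that sulfotransferases turn into a DNA-reactive ester. The genes were Atf4, Atf3, Ddit3, Trib3, Asns, Chac1, Xbp1, Hspa5, Herpud1 and Dnajb9, taken as a named set of genes of the ATF4, ATF6 and XBP1 pathways, and all probe sets annotated to one of these genes alone were used. These 10 genes had 21 probe sets of the 45037 tested, and none of the 21 is shared with another gene in the annotation. The brightest probe set of a gene on average stood for it, as it did for each of 18193 genes on the array.

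All animals were male, hemizygous FVB/N-SULT1A1/2 mice with an age label of 5 weeks, so the vehicle groups carry the human SULT1A1/2 transgene too. What promoter drives the transgene, and whether the mice descend from more than 1 founder, is not stated in the labels. Treated mice received 26 mg of 1-MIM-OH per kg body mass by mouth 3 times a week, and vehicle mice received glyceryl trioctanoate alone, and the animals were killed 24 h after their final dose, the tenth at 21 d or the fortieth at 90 d. RNA of each liver was copied from the 3' end and put on 1 Affymetrix array, the Mouse Genome 430 2.0, which measures a transcript mostly near its 3' end. The 23 arrays fell into groups named here vehicle 21 d (n = 6), treated 21 d (n = 5), vehicle 90 d (n = 6) and treated 90 d (n = 6), with 1 array for each animal. A further treated 21 d array was left out by the submitters for hybridisation artefacts and was not analysed here.

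When unfolded proteins collect in the endoplasmic reticulum (ER), its membrane sensors PERK, ATF6 and IRE1 start separate arms of a response. PERK, like the amino acid sensor GCN2, phosphorylates the translation factor eIF2, which slows protein synthesis in general but lets Atf4 mRNA be translated, and ATF4 then drives genes such as Ddit3, Atf3, Trib3, Asns and Chac1. ATF6 and the spliced form of XBP1 drive chaperones and degradation factors of the ER, among them Hspa5, Herpud1 and Dnajb9. The liver secretes most plasma proteins and so has a large ER. ATF4 is controlled mainly at translation and XBP1 by splicing of its mRNA, and the probe sets used here measure neither step.

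The promoters of the 10 genes were searched for the short sequences by which these pathways are known, because several of the genes varied together between animals. The sequences are the 250 bases before the RefSeq gene start on GRCm38.p6, written 5′ to 3′ in the direction of the gene, with capitals for the letters of a matched motif. All 10 genes were found in the RefSeq promoter table. Hspa5 lies on the plus strand at chr2:34771840-34772089, Herpud1 on the plus strand at chr8:94386179-94386428, Dnajb9 on the minus strand at chr12:44210069-44210318, Asns on the minus strand at chr6:7693210-7693459 and Chac1 on the plus strand at chr2:119350992-119351241. The first 3 are shown because the signals of Hspa5 and of Herpud1 each varied with that of Dnajb9, and the last 2 because they hold the amino acid motif.
Hspa5: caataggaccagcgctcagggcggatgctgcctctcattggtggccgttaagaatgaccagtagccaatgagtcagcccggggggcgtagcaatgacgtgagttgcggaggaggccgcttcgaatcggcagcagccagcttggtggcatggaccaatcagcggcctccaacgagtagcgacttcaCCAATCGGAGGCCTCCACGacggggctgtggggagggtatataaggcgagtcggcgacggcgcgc
Herpud1: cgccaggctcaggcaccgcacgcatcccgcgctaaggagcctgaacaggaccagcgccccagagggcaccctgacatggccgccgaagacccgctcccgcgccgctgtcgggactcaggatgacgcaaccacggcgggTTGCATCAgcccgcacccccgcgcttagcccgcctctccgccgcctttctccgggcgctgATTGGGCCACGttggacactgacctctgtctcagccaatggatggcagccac
Dnajb9: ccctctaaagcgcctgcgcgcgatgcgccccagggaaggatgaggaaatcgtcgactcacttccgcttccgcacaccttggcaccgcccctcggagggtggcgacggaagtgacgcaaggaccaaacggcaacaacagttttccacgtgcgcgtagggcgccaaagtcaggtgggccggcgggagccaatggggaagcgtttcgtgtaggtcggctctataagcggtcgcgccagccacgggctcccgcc
Asns: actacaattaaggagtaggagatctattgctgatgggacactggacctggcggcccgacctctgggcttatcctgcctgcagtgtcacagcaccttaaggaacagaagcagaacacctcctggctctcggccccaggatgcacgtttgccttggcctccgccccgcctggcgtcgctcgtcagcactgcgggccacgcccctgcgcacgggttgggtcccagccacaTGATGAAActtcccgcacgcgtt
Chac1: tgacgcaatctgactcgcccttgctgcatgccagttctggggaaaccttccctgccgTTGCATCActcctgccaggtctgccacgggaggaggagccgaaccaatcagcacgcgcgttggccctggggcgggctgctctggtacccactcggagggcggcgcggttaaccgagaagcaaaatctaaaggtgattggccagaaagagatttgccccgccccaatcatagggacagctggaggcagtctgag

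Both strands were searched for 5 motifs, and no matches of different motifs overlapped in these genes. The ER stress response element (ERSE: CCAAT, 9 free bases, CCACG), the site known for ATF6 with NF-Y, was present in 0.113% of 32851 promoter windows of this length and in 1 of the 10 genes, Hspa5, from -65 to -47 of the start. The Herpud1 window ends in CCAAT, 9 bases and CCAC. The last letter of an ERSE there would fall beyond the window, so the search could not decide on it. ERSE-II (ATTGG, 1 free base, CCACG) was present in 0.0304% of the windows and in 1 of the 10 genes, Herpud1, from -52 to -42. The amino acid response element (TGATGNAA), known as a C/EBP-ATF site, was present in 3.45% of the windows and in 4 of the 10 genes: Atf3, Asns, Chac1 and Herpud1. In Asns it lay from -23 to -16 on the strand of the gene, and in Herpud1 from -112 to -105 on the other strand. The XBP1 element TGACGTGG was present in 0.563% of the windows and the cAMP response element TGACGTCA in 1.55%, and neither was found in the 10 genes. A match describes letters in this window alone.

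Signals are log2 values, so a difference of 1 doubles the signal, and each difference below is treated minus vehicle unless said otherwise. A gene passed at an adjusted p under 0.05 in limma, with Benjamini-Hochberg adjustment over the 45037 probe sets. The livers carried hepatocyte RNA: Alb, the gene of serum albumin, had a mean signal of 15.25. RNA measures differed between arrays. The gap between the 3' and 5' control probe sets of Gapdh (3' minus 5', below the Gapdh difference), which grows when RNA or its labelled copy is shortened, was 1.00 ± 0.51 (SD, n = 5) in treated and 0.33 ± 0.13 (n = 6) in vehicle animals at 21 d, a difference of 0.67 (2-sided exact permutation p = 0.026, 0.0606 after Benjamini-Hochberg adjustment over 4 such tests). At 90 d the same measure differed by 0.03 (exact permutation p = 0.909). Treated 21 d replicate 2 stood apart from its group, with a Gapdh difference of 0.14 against 1.02 to 1.45 in the others, and it had the highest summed Kupffer cell (14.30) and neutrophil (11.95) marker signals of its group. Its Gapdh difference lay within the vehicle 21 d range of 0.09 to 0.49, and those of the other treated 21 d animals lay above that range. The 21 d treatment difference of each of the 10 genes is given with and without replicate 2. Without it, treatment and the Gapdh difference cannot be told apart at 21 d, which limits every value given without replicate 2.

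None of the 10 genes passed for treatment at either time. At 21 d, 0 of 10 passed, where 0.957% of all probe sets passed, and at 90 d 0 of 10, where 0.502% passed. No gene had treated and vehicle animals apart, whereas 2.13% of all probe sets did so at 21 d and 1.01% at 90 d. The median difference of the 10 genes was -0.06 at 21 d and -0.15 at 90 d, against -0.02 and 0.02 over all genes. At an unadjusted p under 0.05 in limma, 0 of 10 genes were counted at 21 d, where the share of all probe sets was 15.8%, and 1 of 10, Dnajb9, at 90 d, where it was 10.2%. These counts rest on the representative probe set of each gene, and the other probe sets are given below. The 95% intervals given below set the size of change that these arrays could have missed. They come from the fit and are not adjusted for the number of genes.

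**Figure D1:**
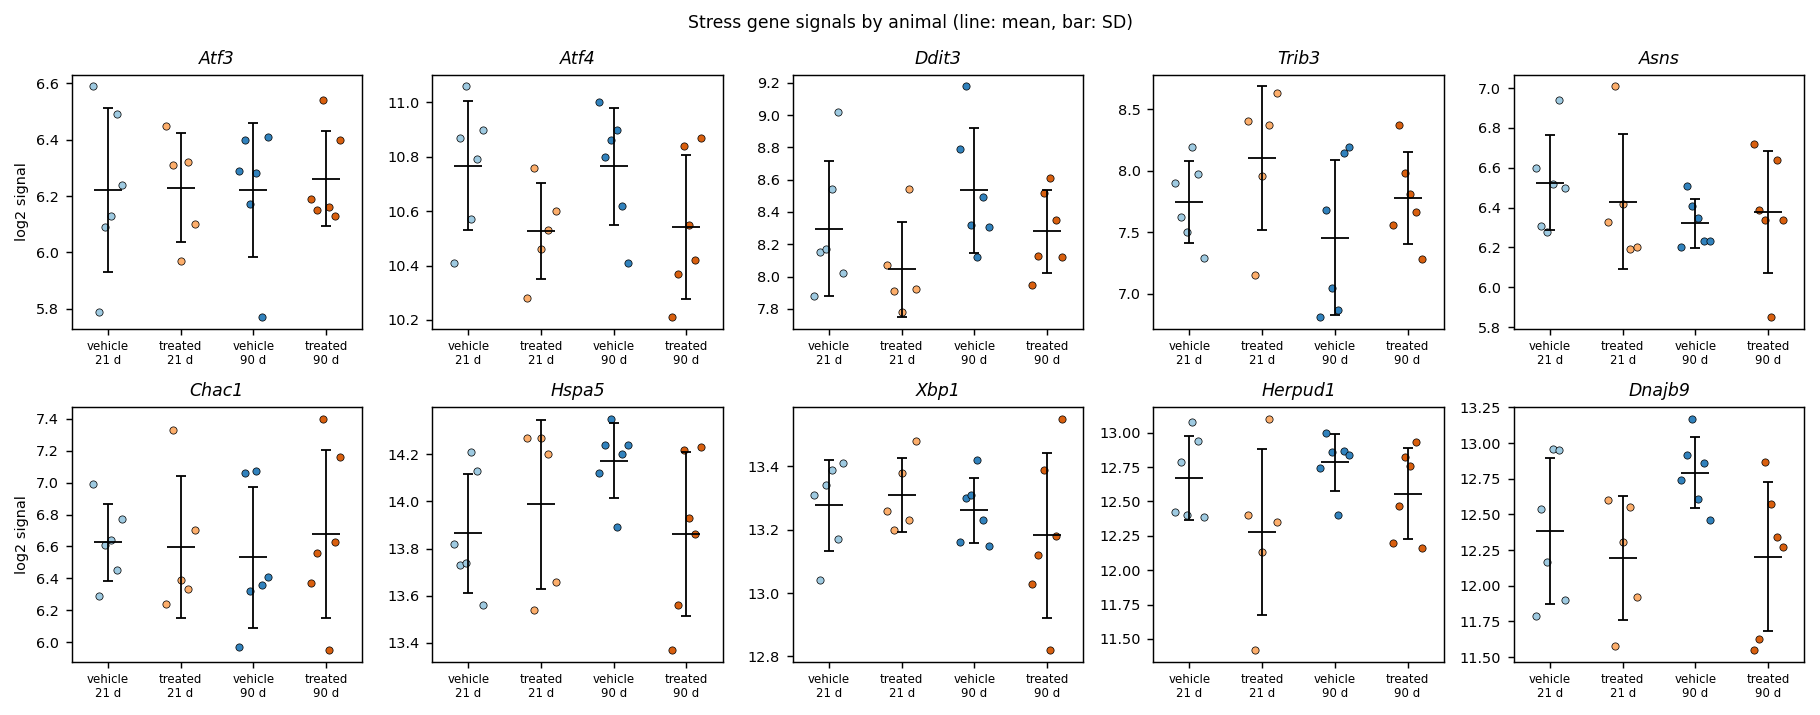
Log2 signal of the representative probe set of each of the 10 genes (vertical axis, own range per gene) in each animal, by group (horizontal axis); a point is 1 animal, the long line the group mean and the bar its SD. The treated and vehicle points overlap for every gene at both times, and the treated 21 d animals spread from 11.42 to 13.10 for Herpud1.

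The plot of signals by animal shows the 4 groups side by side for each gene. The transcription factors come first. Atf4 encodes the factor at the centre of the amino acid and PERK responses. Its signals were 10.28, 10.46, 10.53, 10.60 and 10.76 in the treated animals at 21 d, while the vehicle animals ran from 10.41 to 11.06. All 5 treated animals were below the vehicle median, and 1 of them was below every vehicle animal. The difference was -0.24 (SE 0.13, 95% interval -0.51 to 0.03, adjusted p = 0.385 in limma), and -0.30 without replicate 2 (adjusted p = 0.215 in limma).

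At 90 d the Atf4 signals of treated animals ran from 10.21 to 10.87 and those of vehicle animals from 10.41 to 11.00, with means of 10.54 ± 0.26 and 10.77 ± 0.21 (SD, n = 6 each). The difference was -0.22 (95% interval -0.48 to 0.04, adjusted p = 0.576 in limma). Atf4 was thus lower by similar amounts in both treated groups, with overlap in both and no call in either. Its second probe set, 1438992_x_at, had a mean signal of 9.57, against 10.66 for the first. It gave -0.02 at 21 d (adjusted p = 0.971 in limma) and -0.42 at 90 d (95% interval -0.77 to -0.07, adjusted p = 0.367 in limma). The third, 1439258_at, is dim, with a mean signal of 4.58, and gave -0.13 and -0.16.

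Ddit3 encodes CHOP, a factor made downstream of ATF4 that is tied to cell death under prolonged ER stress. It was 7.78, 7.91, 7.92, 8.07 and 8.54 in the treated animals at 21 d and ran from 7.88 to 9.02 in vehicle animals. The treated animals lay in the lower part of the vehicle range, with 4 of 5 below the vehicle median. The difference was -0.25 at 21 d (95% interval -0.65 to 0.15) and -0.26 at 90 d (-0.64 to 0.13), with adjusted p = 0.581 and 0.687 in limma. Without replicate 2 the 21 d difference was -0.22. The dimmer probe set 1443897_at gave 0.03 (-0.45 to 0.51) and -0.40 (-0.85 to 0.06).

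Atf3 encodes a factor that many kinds of stress raise within hours. Its signals were low and alike in all groups, with means of 6.22 ± 0.29 (vehicle 21 d), 6.23 ± 0.19 (treated 21 d, n = 5), 6.22 ± 0.24 (vehicle 90 d) and 6.26 ± 0.17 (treated 90 d; SD, n = 6 in the other 3 groups). The differences were 0.01 (95% interval -0.26 to 0.28) and 0.04 (-0.22 to 0.30), the smallest of the 10 genes at both times, and the 21 d difference was -0.012 without replicate 2.

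Of the targets of ATF4, Trib3 had the largest positive differences of the 10 genes. Trib3 encodes a pseudokinase that ATF4 and CHOP raise and that dampens their activity. At 21 d it was 7.15, 7.96, 8.37, 8.40 and 8.63 in the treated animals and 7.29 to 8.19 in vehicle animals. In all, 3 treated animals were above every vehicle animal and 1, replicate 2, was below every one. The difference was 0.36 (SE 0.27, 95% interval -0.20 to 0.92, adjusted p = 0.576 in limma), and without replicate 2 it was 0.60 (adjusted p = 0.186).

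At 90 d Trib3 ran from 7.28 to 8.37 in treated animals (median 7.74) and from 6.81 to 8.19 in vehicle animals (median 7.36). The vehicle animals split into 3 of low and 3 of high signal, and 5 of 6 treated animals lay above their median. The difference was 0.32 (95% interval -0.21 to 0.85, adjusted p = 0.729 in limma). The other Trib3 probe set, 1426065_a_at, gave 0.17 and 0.22, the same sign at both times.

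Asns encodes asparagine synthetase, a classic target of the amino acid response. Its signals were 6.19, 6.20, 6.33, 6.42 and 7.01 in the treated 21 d animals against 6.28 to 6.94 in vehicle animals, so that the highest animal of the time point, treated replicate 2, stood above 4 lower treated ones. The difference was -0.10 at 21 d (95% interval -0.40 to 0.21) and 0.06 at 90 d (-0.23 to 0.35). Without replicate 2 the 21 d difference was -0.24 (adjusted p = 0.324 in limma). The other Asns probe set, 1433966_x_at, has a mean signal of 3.91, near the lower end of the arrays, and gave -0.23 and 0.41.

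Chac1 encodes an enzyme that breaks down glutathione and is raised by ATF4 with CHOP. It was 6.24, 6.33, 6.39, 6.70 and 7.33 in treated animals at 21 d and 6.29 to 6.99 in vehicle animals, again with replicate 2 highest. The differences were -0.03 (95% interval -0.51 to 0.46) and 0.15 (-0.32 to 0.61), with adjusted p = 0.976 and 0.873 in limma. Without replicate 2 the 21 d difference was -0.21 (adjusted p = 0.675 in limma). The SD of Chac1 within the groups was 0.24 to 0.53.

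In the ER arm, Xbp1 was the steadiest gene. Xbp1 encodes the factor whose mRNA IRE1 splices. Its signal was 13.20, 13.23, 13.26, 13.38 and 13.48 in treated and 13.04 to 13.41 in vehicle animals at 21 d. The differences were 0.03 (95% interval -0.17 to 0.24) at 21 d and -0.08 (-0.28 to 0.12) at 90 d, the narrowest intervals of the 10 genes, and the 21 d difference was 0.06 without replicate 2. The other 3 probe sets of Xbp1 gave -0.09, -0.02 and 0.17 at 21 d and -0.02, -0.13 and -0.33 at 90 d, none passing.

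Hspa5 encodes BiP, the main HSP70 chaperone of the ER, which holds the sensors inactive until unfolded proteins draw it off. At 21 d its signals were 13.54, 13.66, 14.20, 14.27 and 14.27 in treated animals and 13.56 to 14.21 in vehicle animals. The treated animals thus lay at both ends of the vehicle range. The difference was 0.12 (95% interval -0.21 to 0.46, adjusted p = 0.780 in limma), and without replicate 2 it was 0.24 (adjusted p = 0.446 in limma).

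At 90 d Hspa5 ran from 13.37 to 14.23 in treated animals and from 13.89 to 14.35 in vehicle animals, and 3 of 6 treated animals were below every vehicle animal. The difference was -0.31 (SE 0.15, 95% interval -0.63 to 0.01, adjusted p = 0.500 in limma). The probe set 1427464_s_at gave 0.04 at 21 d (adjusted p = 0.947 in limma) and -0.48 at 90 d (95% interval -0.83 to -0.13, adjusted p = 0.281 in limma). On it, all 6 treated 90 d animals were below the vehicle median and 4 were below every vehicle animal. The probe set 1447824_x_at gave 0.14 and -0.05. The probe sets of Hspa5 thus disagreed on the size of the 90 d difference.

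Herpud1 encodes an ER membrane protein that helps send misfolded proteins to the proteasome. At 21 d it was 11.42, 12.13, 12.35, 12.40 and 13.10 in treated animals and 12.39 to 13.08 in vehicle animals. In all, 3 treated animals were below every vehicle animal and 1 was above every one. The difference was -0.39 (SE 0.21, 95% interval -0.82 to 0.04, adjusted p = 0.376 in limma). Its other probe set, 1435626_a_at, gave -0.48 (95% interval -0.95 to -0.01, adjusted p = 0.301 in limma).

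The lowest Herpud1 value was again that of replicate 2, and without it the 21 d difference was -0.17 (adjusted p = 0.660 in limma). With the 5 arrays above a Gapdh difference of 0.9 left out, replicate 2 is the only treated animal left at 21 d, and Herpud1 then passed at -1.25 (adjusted p = 0.0336 in limma), a value that assumes that this lone animal varies like the other groups. At 90 d the Herpud1 signals ran from 12.16 to 12.93 in treated and 12.40 to 13.00 in vehicle animals, a difference of -0.23 (95% interval -0.64 to 0.18).

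Dnajb9 encodes ERdj4, a co-chaperone of BiP that holds IRE1 in check. It was 11.58, 11.92, 12.31, 12.55 and 12.60 in treated and 11.79 to 12.96 in vehicle animals at 21 d, a difference of -0.19 (95% interval -0.70 to 0.31), and of -0.04 without replicate 2 (adjusted p = 0.955 in limma). At 90 d it ran from 11.55 to 12.87 (median 12.30) in treated and from 12.46 to 13.17 (median 12.80) in vehicle animals. In all, 4 of 6 treated animals were below every vehicle animal, but the 2 highest treated animals lay within the vehicle range. The difference of -0.59 (SE 0.23, 95% interval -1.07 to -0.11) was the largest of the 10 genes, and it did not pass after adjustment (adjusted p = 0.361 in limma). Dnajb9 has a single probe set.

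**Figure D2:**
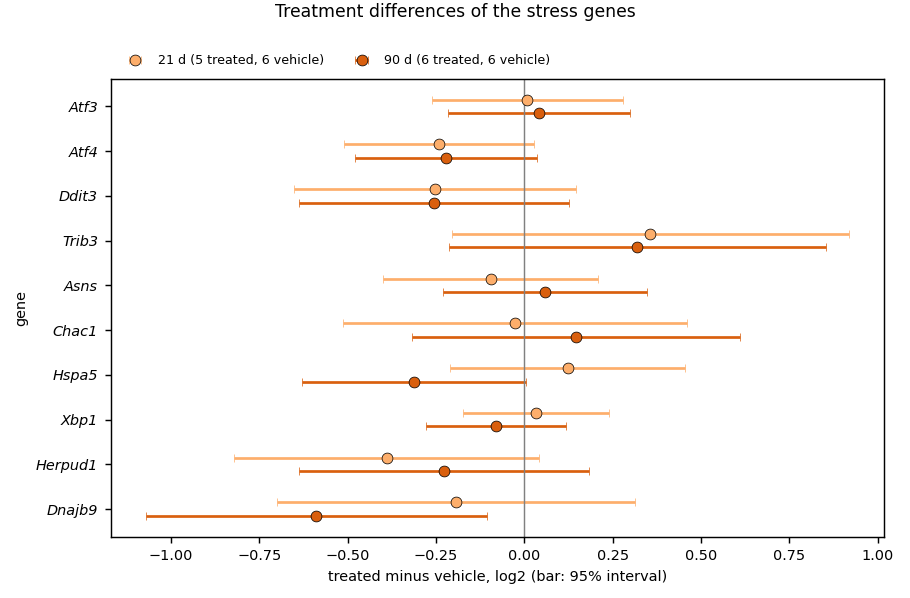
Treated minus vehicle difference of each of the 10 genes in log2 units (horizontal axis) at 21 d (light points) and 90 d (dark points), with bars for the 95% interval of the limma fit. Of the representative probe sets shown, only Dnajb9 at 90 d has an interval that does not reach 0, from -1.07 to -0.11.

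The plot of treatment differences shows that signs were shared between the times for 6 of the 10 genes: Atf3 and Trib3 had positive and Atf4, Ddit3, Herpud1 and Dnajb9 negative differences at both. The change of the treatment difference from 21 d to 90 d was tested as its own contrast. Of the 10 genes 0 passed, where 0% of all probe sets passed in limma (4320 at an unadjusted p under 0.05, 9.59%, with 0 of the 10 genes among them). The largest such changes were in Hspa5 at -0.43 (95% interval -0.89 to 0.02, adjusted p = 0.539) and Dnajb9 at -0.40 (-1.09 to 0.30, adjusted p = 0.711 in limma).

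Vehicle animals were compared between 21 d and 90 d. Of the 10 genes 0 passed, where 0.00666% of all probe sets passed, and 0 had non-overlapping groups, where 0.659% did. At an unadjusted p under 0.05 in limma 0 of the 10 genes were counted, where 5.96% of all probe sets were. Dnajb9 had the largest difference, with a vehicle mean of 12.38 ± 0.51 at 21 d and 12.79 ± 0.25 at 90 d (SD, n = 6 each), or 0.41 (95% interval -0.07 to 0.89, adjusted p = 0.884 in limma). Hspa5 followed at 0.31 (-0.01 to 0.63, adjusted p = 0.841 in limma). The vehicle 90 d animals are thus the highest group for both genes, and the same animals enter the 90 d treatment difference of each, so these values are not independent of it.

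Among treated animals 0 of the 10 genes passed between 90 d and 21 d, where 0.0755% of all probe sets passed, and 0 had non-overlapping groups, where 0.591% did. At an unadjusted p under 0.05 in limma 0 of the 10 genes were counted, where 13.4% of all probe sets were. Trib3 at -0.33 (95% interval -0.89 to 0.24) and Herpud1 at 0.28 (-0.15 to 0.71) had the largest differences, with adjusted p = 0.639 and 0.594 in limma. The remaining 8 genes differed by at most 0.24 in size.

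The genes around these pathways were read in 7 lists of 16, 15, 19, 18, 20, 19 and 24 measured genes. Over all these lists 1 gene passed for treatment, where 0.957% of all probe sets passed at 21 d and 0.502% at 90 d. Edem2, which helps pull misfolded glycoproteins out of the ER, rose at 21 d. Its signals were 9.44, 9.71, 9.79, 9.80 and 10.08 in treated and 9.04 to 9.40 in vehicle animals. The groups did not overlap, as was so for 2.13% of all probe sets at 21 d. The difference was 0.52 (SE 0.12, adjusted p = 0.0417 in limma), where 0.406% of all probe sets rose. The call was lost in 13 of 23 fits that left out 1 array, with adjusted p up to 0.117 in limma, and in the limma fit that takes the Gapdh difference into account (0.36, adjusted p = 0.485). Counting that fit, the call was kept in 4 of the 9 settings other than leaving out 1 array. Its second probe set, 1444335_at, is dim and had means of 4.65 in treated and 4.67 in vehicle animals.

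None of the other 18 measured genes of ER-associated degradation passed at 21 d, and 0 of 19 passed at 90 d. The list had a median difference of 0.08 at 21 d and -0.10 at 90 d. Syvn1, the ubiquitin ligase of this pathway, had a mean of 10.57 ± 0.59 in vehicle and 11.08 ± 0.89 in treated animals at 21 d, and 11.26 ± 0.40 against 10.71 ± 0.78 at 90 d. The sign of its difference thus changed between the times, and the change, -1.06, did not pass (adjusted p = 0.522 in limma).

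Of 20 ER chaperones and oxidoreductases 0 passed at either time. Their median difference was 0.14 at 21 d, with 17 of 20 positive, and -0.09 at 90 d, with 14 of 20 negative. The medians of all genes were -0.02 and 0.02. Hyou1, a large chaperone that works with BiP, differed by 0.49 at 21 d (95% interval 0.10 to 0.88, adjusted p = 0.194), and Hspa13 by -0.64 at 90 d (-1.07 to -0.21, adjusted p = 0.222 in limma). The median change of the treatment difference over the list was -0.31, against 0.04 over all genes, and no single chaperone passed for that change. The Gapdh difference was 0.67 higher in treated than in vehicle animals at 21 d and 0.03 higher at 90 d, and its part in these values was not tested.

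Of 24 genes of the secretory pathway tied to XBP1, 0 passed at either time, with medians of 0.06 and -0.04. Wfs1, for an ER membrane protein (0.40 at 21 d, -0.28 at 90 d), and Sec23b, for a coat protein of vesicles that leave the ER (0.33, -0.32), had the largest differences, with opposite signs at the times. Of 16 stress sensors and eIF2 regulators 0 passed. Eif2b4, a subunit of the exchange factor that phosphorylated eIF2 blocks, differed by 0.36 at 21 d (adjusted p = 0.131 in limma). Among fits that left out 1 array, it passed only without treated 21 d replicate 2 (0.44, adjusted p = 0.0337 in limma). Atf6b also differed by 0.36 at 21 d (adjusted p = 0.170 in limma). At 90 d Mbtps2 differed by 0.23 (adjusted p = 0.193 in limma). Among fits that left out 1 array, Mbtps2 passed only without treated 90 d replicate 3 (0.28, adjusted p = 0.0489 in limma). Eif2ak3, which encodes PERK, differed by -0.22 at 90 d (adjusted p = 0.733 in limma).

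On the amino acid side no gene passed. Of 15 other targets of ATF4 and CHOP 0 passed at either time, with medians of 0.09 and 0.00. Vldlr, a lipoprotein receptor gene that ATF4 raises under ER stress, had negative differences of -0.52 and -0.65 (adjusted p = 0.183 and 0.141 in limma). Ddit4, an inhibitor of mTORC1 that p53 and glucocorticoids raise as well, had a mean of 7.99 ± 0.21 in vehicle and 8.60 ± 0.16 in treated animals at 90 d, a difference of 0.61 (adjusted p = 0.0866 in limma). Among fits that left out 1 array, Ddit4 passed only without treated 21 d replicate 2 (adjusted p = 0.00403 in limma). That animal is not part of the 90 d comparison, so the difference was unchanged. All probe sets passing at 90 d rose from 226 to 376 without it. Bbc3, which encodes the p53 target PUMA, differed by 0.42 at 21 d (adjusted p = 0.103 in limma).

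Of 19 genes of amino acid synthesis and transport 0 passed, and their medians were 0.02 at both times. Of 18 cytosolic tRNA synthetases, which ATF4 raises as a group under amino acid shortage, 0 passed. Their median difference was 0.14 at 21 d, with 16 of 18 positive, and -0.03 at 90 d, against -0.02 and 0.02 over all genes. The part of the Gapdh difference, which was higher in treated animals at 21 d, was not tested. Aars, for alanyl-tRNA, differed by 0.39 (adjusted p = 0.126 in limma) and Vars, for valyl-tRNA, by 0.34 (adjusted p = 0.114) at 21 d. Vars passed without treated 21 d replicate 2 (0.39, adjusted p = 0.0436 in limma) and without treated 90 d replicate 6 (adjusted p = 0.0372 in limma), and Aars without the latter (adjusted p = 0.0436 in limma).

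**Figure D3:**
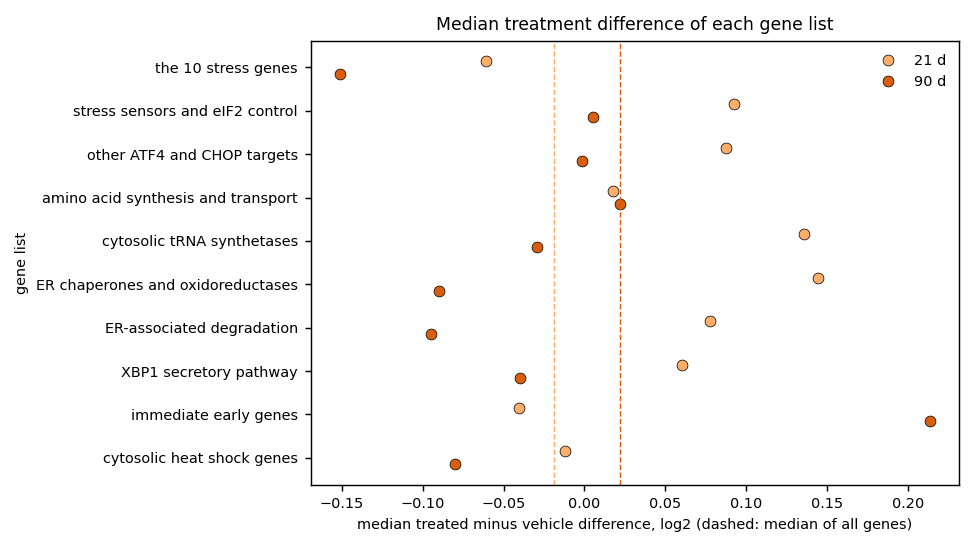
Median treated minus vehicle difference in log2 units (horizontal axis) of the 10 stress genes and of 9 related gene lists (vertical axis) at 21 d (light points) and 90 d (dark points); dashed lines mark the medians over all genes at each time. The ER chaperones lie at 0.14 at 21 d and -0.09 at 90 d.

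At an unadjusted p under 0.05 in limma, the counts at 21 d and 90 d were 3 and 4 of 20 ER chaperones, 4 and 0 of 19 degradation genes and 3 and 0 of 24 secretory pathway genes. They were 4 and 2 of 16 stress sensors and eIF2 regulators, 4 and 5 of 15 other targets of ATF4 and CHOP, 5 and 1 of 19 genes of amino acid synthesis and transport, and 5 and 5 of 18 tRNA synthetases. The shares over all probe sets were 15.8% and 10.2%. The plot of list medians places the 10 genes, at -0.06 and -0.15, below the medians of all genes at both times. The lists of ER chaperones, ER-associated degradation and secretory pathway genes lie above it at 21 d and below it at 90 d. These medians are descriptions of the lists, and no median of the 7 pathway lists exceeded 0.14 in size at either time.

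Although treatment moved none of the 10 genes past the threshold, the genes varied widely between animals of the same group. The SD within groups was 0.49 for Trib3, 0.44 for Dnajb9, 0.43 for Chac1, 0.38 for Herpud1 and 0.35 for Ddit3, against a median of 0.16 over the 10844 genes with a mean signal of at least 6. For Trib3 97.2% of those genes had a smaller SD, for Dnajb9 96.5% and for Chac1 96.2%. Hspa5 (0.29), Asns (0.26), Atf3 (0.23) and Atf4 (0.23) were intermediate, and Xbp1 (0.17) lay near the middle, with 58.1% of genes below it.

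This spread was shared between some of the genes. The deviations of each animal from its group mean were compared for all 45 pairs over the 23 animals, with 100000 shuffles within groups and Benjamini-Hochberg adjustment over the 45 pairs. By Pearson's r 7 pairs passed, 6 of them positive, and by Spearman's rho 7 passed. The pair of Hspa5 and its co-chaperone gene Dnajb9 was the closest, with r = 0.83 (permutation p = 5e-05, adjusted p = 0.00225) and rho = 0.78 (permutation p = 0.00025, adjusted p = 0.0054). With the 2 animals farthest from the median of Hspa5 left out, r was 0.78.

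Herpud1 and Dnajb9 had r = 0.71 and rho = 0.80 (permutation p = 0.00071 and 0.00036, adjusted p = 0.0106 and 0.0054). Ddit3 joined both, with r = 0.67 and rho = 0.77 against Herpud1 (permutation p = 0.00028 and 0.0001, adjusted p = 0.0063 and 0.0045) and r = 0.66 and rho = 0.64 against Dnajb9 (permutation p = 0.00099 and 0.00238, adjusted p = 0.0111 and 0.0214). Without the 2 farthest animals these r were 0.71, 0.72 and 0.67. Each of these 4 pairs passed in all 23 repeats that left out 1 array. Hspa5 and Herpud1 had r = 0.57 and did not pass (permutation p = 0.0172, adjusted p = 0.0949). Over the 18 arrays without a Gapdh difference above 0.9 that pair passed (r = 0.85, adjusted permutation p = 0.00555), as did Ddit3 and Hspa5 (r = 0.64, adjusted permutation p = 0.0349).

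A further 3 pairs passed, less firmly. Chac1 and Xbp1 had r = 0.66 and rho = 0.63 (permutation p = 0.00213 and 0.00353, adjusted p = 0.0192 and 0.0227), and 0.78 without the 2 farthest animals; without treated 90 d replicate 4 the pair did not pass (r = 0.56, adjusted p = 0.0719). Trib3 and Herpud1 had r = 0.61 and rho = 0.59 (permutation p = 0.00396 and 0.00313, adjusted p = 0.0255 and 0.0227), and 0.51 without the 2 farthest animals. Without treated 21 d replicate 2 this r was 0.45 (adjusted permutation p = 0.136), and it also did not pass without vehicle 21 d replicate 4, treated 90 d replicate 6 or vehicle 90 d replicate 4.

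Atf4 and Trib3 were the only pair to pass with a negative sign, although Trib3 is known as a target of ATF4. Their r was -0.59 and rho -0.64 (permutation p = 0.00337 and 0.00146, adjusted p = 0.0253 and 0.0164), and r was -0.55 without the 2 farthest animals. The pair did not pass without treated 21 d replicate 2, vehicle 90 d replicate 1 or vehicle 90 d replicate 6, with adjusted p up to 0.0955. Atf4 had no positive pair that passed with Asns (r = -0.10), Chac1 (0.34) or Ddit3 (0.16).

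**Figure D4:**
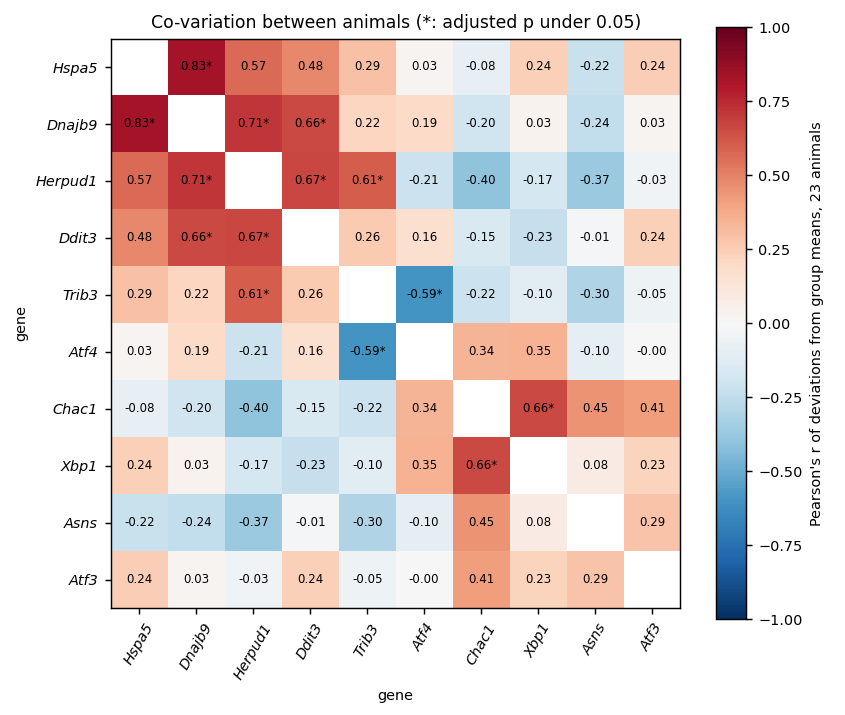
Pearson's r (colour and number) between the deviations of 2 of the 10 genes from their group means over 23 animals, for each pair; a star marks an adjusted permutation p under 0.05. Hspa5, Dnajb9, Herpud1 and Ddit3 form a block of positive values in the upper left, and Atf4 with Trib3 is the starred negative pair.

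The map of pairwise correlations shows a block of 4 genes, Hspa5, Dnajb9, Herpud1 and Ddit3, with r from 0.48 to 0.83 among them, and a separate pair of Chac1 and Xbp1. All 7 passing pairs had the same sign in the 12 vehicle and in the 11 treated animals taken alone. Hspa5 and Dnajb9 had r = 0.75 in vehicle and 0.89 in treated animals, and Ddit3 and Herpud1 had 0.71 and 0.78. With these smaller numbers no pair passed in either set after adjustment. With the Gapdh difference removed from each gene, 7 pairs passed, as many as before.

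**Figure D5:**
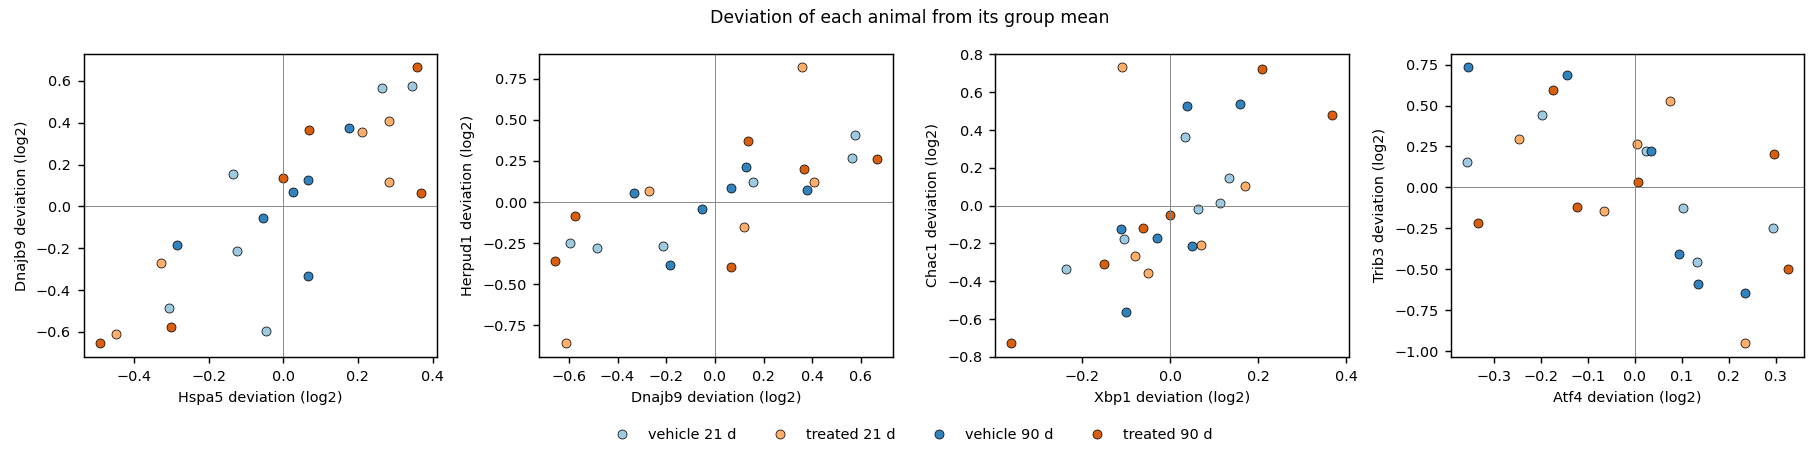
Deviation of each of the 23 animals from its group mean in log2 units for 4 pairs of genes (1 panel per pair, 1 gene per axis); a point is 1 animal, coloured by group. Points of all 4 groups run from lower left to upper right for Hspa5 and Dnajb9 and for Herpud1 and Dnajb9.

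The scatter of deviations shows which animals lay at the ends. Treated 21 d replicate 2 was 0.45 below its group mean for Hspa5, 0.61 below for Dnajb9 and 0.86 below for Herpud1, on the log2 scale, and treated 90 d replicate 1 was also low for all 3. Treated 21 d replicate 1 was 0.28 above for Hspa5 and 0.41 above for Dnajb9. Vehicle animals spanned a like range for Dnajb9, from -0.595 to 0.575 against -0.655 to 0.665 in treated animals. The vehicle range was narrower for Herpud1, from -0.385 to 0.41 against -0.86 to 0.82 in treated animals. For Hspa5 it was -0.305 to 0.345 against -0.492 to 0.368. Vehicle 21 d replicate 6 was low and replicates 4 and 5 were high in these 3 genes. For Trib3, treated 21 d replicate 2 was 0.95 below its group mean while its Atf4 was 0.23 above.

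The whole transcriptome was then ranked by likeness to each gene, as a description over the 23 animals among 10844 genes that share the arrays. The genes most like Hspa5 were Manf (r = 0.98) and Creld2 (0.97), both secreted or resident ER proteins known as targets of ATF6. Dnajb9 was most like Zbtb8a (0.95) and Ccdc127 (0.92), Herpud1 most like Arrdc2 (0.82) and Creb3l2 (0.81), and Ddit3 most like Vasn and Mfsd11 (0.78 each). Trib3 was most like Klf11 (0.86) and Arrdc3 (0.77), Chac1 most like Irgm2 (0.89) and C4bp (0.87), and Asns most like Slc16a9 (0.84) and Wipf1 (0.79). Atf4 was most like Id3 and Gm2788 (0.84 each), Xbp1 most like Rgs3 and Dio1 (0.77 each), and Atf3 most like Nfkbiz (0.71) and Bet1 (0.70).

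Hspa5 varied with much of the ER folding machinery. Of 20 ER chaperones and oxidoreductases 12 (60%) had r of at least 0.7 with Hspa5, against 2.67% of all genes with a mean of at least 6. Besides Manf and Creld2 these included Ero1b (0.93), Hspa13 (0.92), Dnajb11 (0.89), Dnajc3 (0.87), Hyou1 (0.85), Pdia4 (0.85), Hsp90b1 (0.78) and Calr (0.74). The other 8 ran from -0.24 for Canx, the lectin chaperone calnexin, to 0.55 for Fkbp2, and included the disulfide isomerases Pdia3 (0.25), Pdia6 (0.25) and P4hb (0.53). Other lists also exceeded the 2.67% share. These were 4 of 18 cytosolic tRNA synthetases (22.2%), 2 of 10 cytosolic heat shock genes (20%) and 2 of 16 stress sensors and eIF2 regulators (12.5%). With 1 gene each, so did the other targets of ATF4 and CHOP (7.14%) and amino acid synthesis and transport (6.25%). Of 14 immediate early genes 0 reached it. The limit of 0.7 was chosen after the values were seen.

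The same held for 8 of 19 genes of ER-associated degradation (42.1%), led by Syvn1 (0.94), its partner in the ligase Sel1l (0.92) and Ubxn4 (0.92), and for 9 of 23 genes of the secretory pathway (39.1%), led by Sec23b (0.95) and Wfs1 (0.93). Dnajb9 reached 0.7 with 7 of 20 chaperones (35%) and 7 of 19 degradation genes (36.8%), against 1.51% of all genes. Herpud1 reached it with 0 of 20 and 0 of 19, and Xbp1 with none of the genes of these lists. Of 10 cytosolic heat shock genes, Dnajb9 reached it with 2 (20%) and Herpud1 with 1 (10%), against 0.258% of all genes for Herpud1. The median r with Herpud1 was 0.53 for the heat shock genes and 0.33 for the ER chaperones. Creld2 had SDs of 0.92, 1.21, 0.47 and 1.15 in the vehicle 21 d, treated 21 d, vehicle 90 d and treated 90 d groups.

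Technical measures and other cell types were set beside this spread. Of the 10 genes none was related to the Gapdh difference after adjustment over 10 relations; the closest was Asns, with r = -0.59 and rho = -0.60 (permutation p = 0.0334 and 0.00697, adjusted p = 0.334 and 0.0697), and r = -0.49 without the 2 animals farthest from the median of the Gapdh difference. Secretory cells such as pancreatic acinar and plasma cells carry high levels of ER chaperones. The summed signal of 7 acinar markers ran from 11.07 to 12.00 over all animals and was carried by Cela1 (mean 11.30). Cpa1 (5.87) and Cel (5.42) were dim on average and weigh little in the sum. Between animals Cela2a ran from 4.85 to 8.14, Cpa1 from 4.84 to 7.70, Ctrb1 from 5.76 to 7.84 and Cel from 4.90 to 6.97. Prss2 ran from 6.11 to 7.29 and Pla2g1b from 5.28 to 5.83. The summed signal of 7 plasma cell markers ran from 11.49 to 12.22 and was carried by Sdc1 (11.48). Tnfrsf17 (4.88) and Pou2af1 (3.58) were dim. Jchain ran from 5.51 to 7.98 between animals, Ighm from 7.45 to 8.89 and Mzb1 from 6.67 to 7.16. None of the markers passed for treatment, and the part of other cells in the shared spread was not tested. In whole liver, fewer cells of a type and less RNA per cell cannot be told apart.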

How the data were processed

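RNA from 23 livers was measured on 1 array each. The deposited values are log2 signals with 2 decimals, made by the authors with RMA and Partek, per the submitters' processing notes; versions and settings are not given there, and base 2 is an inference from RMA's usual output and from values between 2.23 and 15.41. RMA subtracts background, equalises the distribution of the arrays and summarises probes, so a shift shared by all genes would not appear. Array medians ran from 5.53 to 5.61.

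After 64 control probe sets were set aside, 45037 were tested. The array's annotation gave 34945 of them to 1 gene, 932 to several and 9160 to none. Group means were fitted with limma 3.58.1 in R 4.3.3 over all 23 arrays (19 residual degrees of freedom), with 5 contrasts, Benjamini-Hochberg adjustment over 45037 probe sets and a threshold of 0.05. Permutation tests ran in Python 3.11.15 with scipy 1.17.1; the exact tests are 2-sided. The fits were tested on simulated data. Arrays come from separate animals, and their number limits the precision.

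The 10 genes and the gene lists were chosen with earlier results of these data known. All probe sets of the 10 genes are described; of each list, up to 4 past the threshold, or where none passed the 2 with the largest difference, could be named in each contrast. Promoters come from RefSeq, GRCm38.p6. Alternatives covered the probe sets tested, their averaging per gene, the variance model, the arrays in the fit, a replicate block, centring, the Gapdh difference and leaving out each array; leaving out arrays for the correlations, and the treated arrays alone, were chosen after seeing the data.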

Additional observations from a re-analysis of the deposited data

Results flagged for a closer look

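Asns in treated 21 d replicate 2 was far from the other 4 animals of its group: it had a signal of 7.01, the nearest other animal had 6.42, and the gap was 0.72 of the range of the group (Dixon's rule at 95%). This was the only one of 40 groups (10 genes in 4 groups) in which an animal stood apart in this way, and chance alone flags about 1 group in 20. The same animal had the highest Chac1 signal (7.33) and the lowest Herpud1 signal (11.42) of its group, and its Gapdh difference was 0.14. The part of RNA quality in these values was not tested.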

How the results depend on the processing

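The count of the 10 genes past the threshold was 0 in each contrast and setting run, except that it was 1 at 21 d without the 5 arrays whose Gapdh difference exceeded 0.9 (Herpud1, -1.25, adjusted p = 0.0336 in limma). The count over all probe sets moved more: 431 at 21 d became 2265 without treated 21 d replicate 2, 813 over probe sets with a mean of at least 6, 123 with the Gapdh difference in the model and 91 with the replicate block, and ran from 133, without vehicle 21 d replicate 2, upwards in the fits that left out 1 array. At 90 d 226 became 761 without the 5 arrays, from 114 to 389 leaving out 1 array, and 148 with the block, which changed no call of the 10 genes. Treated and vehicle animals of the same replicate number did not deviate in the same direction, with correlations of their deviations from -0.36 to -0.14. Whether the numbers mark another shared structure was not tested. The count of correlated pairs, 7 over all arrays, was 0 in vehicle animals alone and 0 in treated animals alone, and from 5 to 9 leaving out each array. Without the 5 arrays the only treated 21 d animal left equals its group mean and does not inform the correlations. Without the 5 arrays 7 pairs passed by r, and Atf4 with Trib3 (-0.56, adjusted permutation p = 0.124) and Trib3 with Herpud1 (0.43, adjusted permutation p = 0.294) were not among them, while Hspa5 with Herpud1 and Ddit3 with Hspa5 were. Edem2 at 21 d was also lost with the mean of its probe sets (0.25, adjusted p = 0.129 in limma), the replicate block (0.55, 0.0807), only the groups compared (0.52, 0.0528) and without the 5 arrays (0.47, 0.207). Ddit4 at 90 d passed with only the groups compared (adjusted p = 0.0172 in limma), the Gapdh difference in the model (0.0226) and without the 5 arrays (0.00396). The cause of these changes was not tested. The number of arrays limits the precision.

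When the Gapdh difference entered the model, the sign turned and treated minus vehicle at 21 d was 0.22 for Asns, 0.23 for Chac1, -0.060 for Hspa5, -0.065 for Xbp1, 0.12 for Got1 and -0.22 for Creld2. The 90 d minus the 21 d treatment difference was then 0.029 for Ddit3, 0.097 for Trib3, -0.15 for Asns, -0.072 for Chac1 and -0.031 for Got1. Vehicle 90 d minus vehicle 21 d was then 0.0035 for Atf3. Treated 90 d minus treated 21 d was then -0.10 for Chac1 and 0.0029 for Hspa5. Without the 5 arrays whose Gapdh difference exceeded 0.9 (4 of them treated 21 d, which left 1 animal, assumed to vary like the other groups), the sign turned and treated minus vehicle at 21 d was -0.59 for Trib3, 0.48 for Asns, 0.70 for Chac1, -0.33 for Hspa5, -0.077 for Xbp1, 0.81 for Got1, -1.28 for Creld2, -0.20 for Wfs1, -0.28 for Sec23b and 0.84 for Fos. The 90 d minus the 21 d treatment difference was then -0.074 for Atf3, -0.28 for Atf4, 0.16 for Ddit3, 1.01 for Trib3, -0.42 for Asns, -0.65 for Chac1, 0.20 for Dnajb9, 0.035 for Ero1a, -0.56 for Ddit4, -0.62 for Got1, -0.82 for Aldh18a1, 0.30 for Creld2, 0.17 for Syvn1, -0.44 for Fos and -0.43 for Btg2. Treated 90 d minus treated 21 d was then -0.076 for Atf3, -0.28 for Atf4, 0.73 for Trib3, -0.75 for Chac1 and 0.25 for Hspa5. With the mean of a gene's probe sets, the sign turned and the 90 d minus the 21 d treatment difference was -0.13 for Atf4 and 0.0065 for Trib3. Vehicle 90 d minus vehicle 21 d was then 0.054 for Atf4 and 0.061 for Xbp1. Treated 90 d minus treated 21 d was then -0.080 for Atf4 and 0.084 for Asns. With a replicate block, the sign turned and treated minus vehicle at 21 d was 0.0067 for Chac1. The 90 d minus the 21 d treatment difference was then 0.042 for Ddit3. With arrays centred on their median, the sign turned and vehicle 90 d minus vehicle 21 d was 0.0067 for Atf3 and 0.0067 for Atf4.

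Leaving out 1 array at a time turned the sign of some differences in some fits: treated minus vehicle at 21 d ran from -0.078 to 0.082 for Atf3, -0.21 to 0.062 for Chac1 and -0.014 to 0.061 for Xbp1. Treated minus vehicle at 90 d ran from -0.048 to 0.080 for Atf3 and -0.0097 to 0.16 for Asns. The 90 d minus the 21 d treatment difference ran from -0.057 to 0.12 for Atf3, -0.052 to 0.090 for Atf4, -0.15 to 0.13 for Ddit3, -0.28 to 0.11 for Trib3 and -0.053 to 0.37 for Herpud1. Vehicle 90 d minus vehicle 21 d ran from -0.088 to 0.088 for Atf3, -0.073 to 0.069 for Atf4, -0.20 to 0.019 for Chac1 and -0.062 to 0.012 for Xbp1. Treated 90 d minus treated 21 d ran from -0.033 to 0.087 for Atf3, -0.048 to 0.084 for Atf4, -0.12 to 0.095 for Asns, -0.064 to 0.26 for Chac1 and -0.14 to 0.14 for Dnajb9. The treated minus vehicle gap of the Gapdh difference ran from 0.56 to 0.89 at 21 d, where the unadjusted exact permutation p rose above 0.05 in 4 of 11 fits, and from -0.11 to 0.11 at 90 d. For the Actb difference it ran from 0.49 to 0.79, with the same in 4 of 11 fits, and from -0.20 to 0.018.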

Other observations

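Immediate early genes, which many stimuli raise within minutes, and heat shock genes of the cytosol, which answer misfolded proteins outside the ER, were read as neighbours of these pathways. Of 17 immediate early genes 0 passed at either time in limma (3 at 21 d and 2 at 90 d at an unadjusted p under 0.05). Of all probe sets 0.957% and 0.502% passed at 21 d and 90 d, and 15.8% and 10.2% had an unadjusted p under 0.05. Their median difference was -0.04 at 21 d and 0.21 at 90 d, where 13 of 17 were positive, against 0.02 over all genes at 90 d. Btg2, a p53-responsive gene that slows growth, had means of 7.57 ± 0.21 in vehicle and 8.31 ± 0.29 in treated animals at 90 d (SD, n = 6 each), a difference of 0.74 (adjusted p = 0.187 in limma). Btg2 passed in 5 alternative limma fits: with the mean of its probe sets (0.63, adjusted p = 0.0416), with only the groups compared (0.0224), with the Gapdh difference in the model (0.00773), without the 5 arrays whose Gapdh difference exceeded 0.9 (0.0018) and without treated 21 d replicate 2 (0.0238). Treated 21 d replicate 2 is not part of the 90 d comparison, so the Btg2 difference stayed at 0.74 without it. No other fit that left out 1 array gave a call of Btg2. Egr1 differed by 0.58 (adjusted p = 0.615 in limma).

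Of 10 cytosolic heat shock genes 0 passed at either time in limma (4 at 21 d and 1 at 90 d at an unadjusted p under 0.05, against the same 15.8% and 10.2% of all probe sets). Hspa1a, an inducible HSP70 gene, had means of 9.87 ± 0.35 in vehicle (n = 6) and 8.78 ± 1.01 in treated animals (n = 5) at 21 d, a difference of -1.09 (adjusted p = 0.148 in limma), and its near-identical copy Hspa1b differed by -0.54 (adjusted p = 0.272 in limma). The values of these copies can share transcripts. Hspb1, a small heat shock protein gene, differed by 0.40 at 90 d (adjusted p = 0.255 in limma). Of the genes of amino acid metabolism, Got1, an aspartate aminotransferase gene, had means of 10.95 ± 0.18 in vehicle (n = 6) and 10.33 ± 0.86 in treated animals (n = 5) at 21 d, a difference of -0.62 (adjusted p = 0.246 in limma). Without treated 21 d replicate 2 the difference was -0.98 (adjusted p = 0.00697 in limma), whereas the sign turned with the Gapdh difference in the model (0.12, adjusted p = 0.948 in limma) and without the 5 arrays above 0.9 (0.81, adjusted p = 0.127 in limma).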
